A study of Mus musculus with 18 samples.

Results

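Goblet cells fill the colon with mucus, and 10 mouse genes that make or organise that mucus were followed through the arrays: Muc2, Fcgbp, Clca3 (the array's name for mouse Clca1), Zg16, Tff3, Spink4, Agr2, Spdef, Muc4 and Muc13. They are 10 of 30869 gene symbols on the Illumina MouseWG-6 BeadChip, a glass array on which beads carry probes of 50 bases. Members were chosen by name, and 12 probes carried the symbol of 8 of them. Fcgbp and Zg16 stood on the array under older names, A430096B05Rik with 2 probes and 1810010M01Rik with 1, so that the genes had 15 probes in all, of which 14 passed the filter on dim probes and were tested. The probe that did not pass was the second Fcgbp probe, detected on 3 of 18 arrays.

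Colon epithelium was taken from mice on a C57BL/6 background, and RNA was prepared from the EpCAM+ cells that flow cytometry found free of CD45, CD3 and F4/80. There were 4 groups of 4 samples: untreated wild-type mice (naive WT), untreated mice lacking Mbd2 in every cell (naive Mbd2KO, labelled Naive_KO), WT mice given 2% dextran sulphate sodium (DSS) in their drinking water (DSS WT) and Mbd2KO mice given the same (DSS Mbd2KO, labelled DSS_KO). Mbd2 is a protein that binds methylated CpG in DNA, and DSS is a sulphated sugar chain whose damage to the epithelium causes colitis. The deletion was global, so a difference between genotypes is one between epithelia of whole knockout animals, and a replicate could be a pool of several mice. WT mice were littermates, housed with the knockouts where possible, and the animals were matched for age and sex. The 18 arrays gave 16 samples because 4R was averaged with 4 and 5R with 5. The sources name several experiments without tying a sample to one of them, and the p-values measure the spread between these samples.

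Goblet cells are secretory cells of the gut epithelium. They package the gel-forming mucin Muc2, which leaves the cell, unfolds and forms the net of the colon's mucus layer together with partner proteins, while transmembrane mucins such as Muc4 and Muc13 stay anchored in the cell surface and are also made by other epithelial cells. Loss of the Muc2 layer lets bacteria reach the epithelium, and DSS colitis is a common model in which mucus and goblet cells are studied. In a sorted population such as this, fewer goblet cells and less RNA per goblet cell cannot be told apart.

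The sequences that the beads carried fix what was measured. The Clca3 pair and the Fcgbp probe are shown because these genes varied most among samples, the Muc4 pair because Muc4 differed in 3 comparisons, the Zg16 probe because the gene was found under an older name, and the Spink4 and second Muc13 probes as examples of a probe near the top of the scale and of one below it. Capitals mark the stretch that both probes of a gene share, 47 bases in Clca3 and 49 bases in Muc4, so that each pair is close to a repeated reading of the same site and not independent evidence.
Clca3, brighter probe: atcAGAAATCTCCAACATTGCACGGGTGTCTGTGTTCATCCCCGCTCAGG
Clca3, other probe: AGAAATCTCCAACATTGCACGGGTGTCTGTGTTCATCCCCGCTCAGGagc
Muc4, brighter probe: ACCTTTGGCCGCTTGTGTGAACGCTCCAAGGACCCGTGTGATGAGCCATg
Muc4, other probe: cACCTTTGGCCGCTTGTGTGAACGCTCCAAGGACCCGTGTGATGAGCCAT
Fcgbp: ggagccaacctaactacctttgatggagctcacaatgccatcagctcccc
Zg16: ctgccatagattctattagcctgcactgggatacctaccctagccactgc
Spink4: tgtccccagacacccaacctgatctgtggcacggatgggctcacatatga
Muc13, second probe: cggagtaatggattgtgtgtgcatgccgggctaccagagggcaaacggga

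Because Mbd2 reads methylated CpG, the CpG sites in the 250 bases before the transcription start were counted in RefSeq promoters (GRCm38.p6), which held entries for 6 of the 10 genes. A CpG is the dinucleotide CG, which reads the same on both strands, and it is in capitals here. Of 32851 promoters, 92.1% held at least 1 CG in this window, and the median was 6. The counts were 7 for Spdef, 5 for Agr2 and for Fcgbp, 4 for Muc2, 1 for Muc4, and 0 and 4 for the 2 starts of Muc13. Of the 6 genes counted, Spdef alone had more than the median, but only 53.7% of promoters held fewer than its 7. The quartiles over all promoters were 2 and 16. Methylation was not measured in these samples. Spdef and Agr2 are shown because they differed between untreated genotypes, and Muc4 because it held a lone CG.
Spdef, chr17:27728952-27729201, minus strand: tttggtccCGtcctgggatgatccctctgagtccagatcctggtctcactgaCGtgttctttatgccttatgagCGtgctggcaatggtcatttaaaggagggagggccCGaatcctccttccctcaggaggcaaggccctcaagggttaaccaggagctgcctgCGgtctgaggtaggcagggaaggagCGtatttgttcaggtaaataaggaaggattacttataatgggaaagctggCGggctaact
Agr2, chr12:35992675-35992924, plus strand: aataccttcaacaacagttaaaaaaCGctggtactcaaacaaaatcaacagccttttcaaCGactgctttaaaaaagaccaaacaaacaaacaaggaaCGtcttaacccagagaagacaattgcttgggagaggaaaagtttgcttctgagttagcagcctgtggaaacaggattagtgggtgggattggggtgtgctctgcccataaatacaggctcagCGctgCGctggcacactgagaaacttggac
Muc4, chr16:32735636-32735885, plus strand: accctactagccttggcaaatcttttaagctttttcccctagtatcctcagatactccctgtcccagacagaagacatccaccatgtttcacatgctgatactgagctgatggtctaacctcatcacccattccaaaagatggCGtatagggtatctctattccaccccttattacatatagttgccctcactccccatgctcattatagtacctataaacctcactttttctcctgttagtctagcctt

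A very bright probe may have little room left on the scale. Brightness was judged here against the other probes, not against a limit of the scanner. Near the top was taken to mean among the 1% brightest of all 45281 probes in each of the 16 samples, and 4 of the 15 probes met it: the bright probes of Muc2, Spink4 and Muc13, and the Zg16 probe. The bright Muc2 probe ranked from 7 to 87 of all probes, and its deposited signal was 24308 to 29753 over the 18 arrays, which is 78.5% to 96.5% of the brightest probe on the same array. Spink4 ranked from 14 to 172 and reached 43.9% to 92.4% of the brightest probe. Muc13 ranked from 48 to 167 and reached 51.2% to 87.2%, and Zg16 ranked from 25 to 425 and reached 19.0% to 90.3%. Other probes reached the brightest 1% in some samples only. Tff3 did so in 11 of the 16, the Clca3 probes in 8 and 7, the second Muc13 probe in 4 and Fcgbp in 3. The brighter Clca3 probe had ranks from 17 to 2550 and a highest signal of 87.0% of the brightest probe. The file holds no saturation flag, and how far these signals are compressed was not tested. The second Muc13 probe lay lower, at ranks from 316 to 826, and the second Muc2 probe was dim, at ranks from 10494 to 12542. Dim and bright probes of Muc2 shared no stretch above 5 bases.

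**Figure D1:**
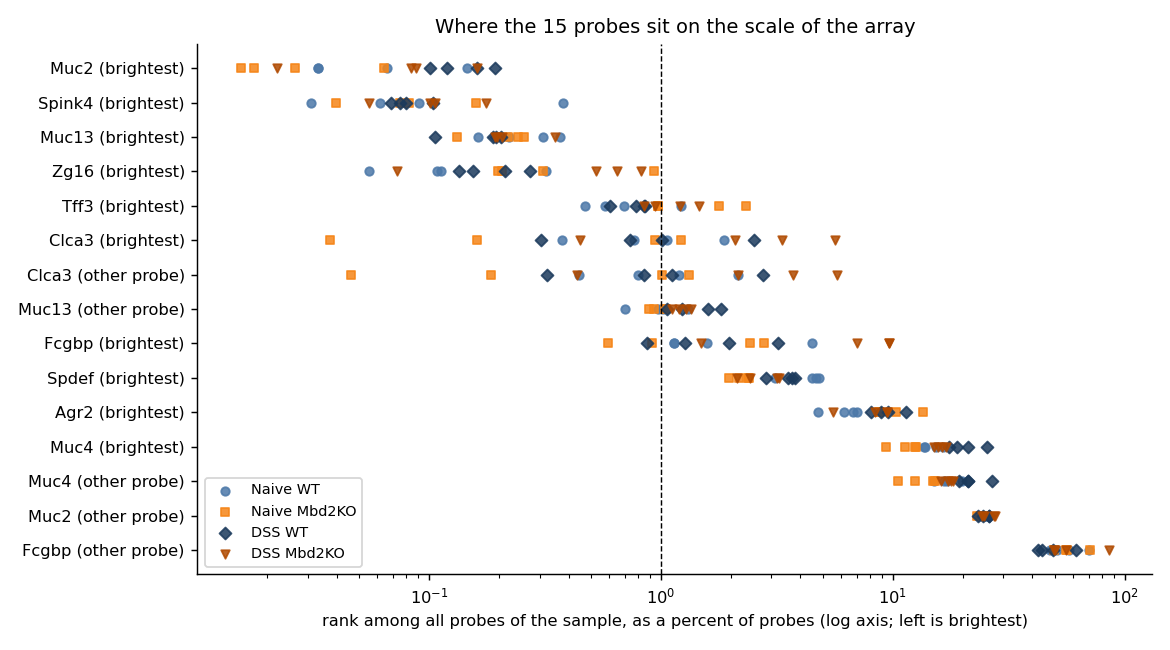
Rank of each of the 15 probes among all probes of a sample, as a percent of probes on a log axis with the brightest at the left (points: 16 samples by group; dashed line: the brightest 1%). The bright probes of Muc2, Spink4, Muc13 and Zg16 lie left of the line in all 16 samples, and those of Clca3 spread widest along the axis.

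Across the arrays 18851 to 20618 probes were detected. The lone Mbd2 probe was detected on 0 of 18 arrays, so the genotype labels were taken as given. Of 9 epithelial markers, 8 were tested (EpCAM under its older symbol Tacstd1), and their summed normalised signal was 56776 to 71693 in every sample. At an adjusted p under 0.05, 1 of the 8 was lower with DSS in WT and 1 higher with DSS in Mbd2KO. Of 10 leukocyte markers, 6 were tested, without Ptprc, Cd3e, Cd79a and Itgam, and their sum had a median of 293 in naive WT, 478 in naive Mbd2KO, 1077 in DSS WT and 1665 in DSS Mbd2KO. Of 9 stromal markers, 5 were lower in DSS Mbd2KO than in DSS WT at an adjusted p under 0.05, with a median sum of 6916 against 10688. In WT 3 of the 9 were higher with DSS than without, where the median sum was 7689. Leukocyte and stromal signal thus moved with the comparisons given next, and their part in those was not tested.

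In untreated mice, Spdef was higher and Agr2 lower in Mbd2KO than in WT epithelium, and no other member passed. Differences are on the log2 scale of normalised signals, and two-sided p-values are from limma with Benjamini-Hochberg adjustment over all 21938 tested probes. A probe was called at an adjusted p under 0.01 with an absolute log2 fold change of 1 or more, the thresholds of the study's methods. By that rule 0 of 14 member probes were called against 0.656% of all tested probes, and at an adjusted p under 0.05 with any fold 2 of 14 passed against 5.19%. At an unadjusted p under 0.05 there were 5 of the 14, from 4 genes, against 22.8%. Of the probes that passed 0.05, 46.7% were higher in Mbd2KO, or 28.2% with each array scaled to its median.

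Spdef encodes a transcription factor that drives the maturation of goblet cells. Its log2 signal was 11.33, 10.76, 10.71 and 10.82 in naive WT replicates 9, 10, 11 and 12, and 11.79, 11.66, 11.68 and 11.92 in naive Mbd2KO replicates 13, 14, 15 and 16. All 4 Mbd2KO samples lay above the highest WT sample. The difference was 0.86 (95% confidence interval 0.53 to 1.18, adjusted p = 0.00542), a fold of 1.81, and it stayed under 0.05 with any of the 16 samples left out. With each array scaled to its median in place of quantile normalization it was 0.73 with an adjusted p of 0.0739. With DSS Spdef was 11.06, 11.10, 11.45 and 11.17 in WT and 11.29, 11.82, 11.30 and 11.65 in Mbd2KO, and the groups overlapped. That difference was 0.32 (-0.01 to 0.65, adjusted p = 0.237).

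Agr2 encodes a disulphide isomerase of the endoplasmic reticulum that goblet cells need to fold Muc2. Its log2 signal was 10.34, 10.21, 10.72 and 10.13 in naive WT and 9.78, 9.77, 8.91 and 9.46 in naive Mbd2KO, in the same order of replicates. Here every Mbd2KO sample lay below every WT sample. The difference was -0.87 (-1.34 to -0.40, adjusted p = 0.0322), a fold of 1.83. It missed 0.05 when naive WT 9, 10 or 11 or naive Mbd2KO 15 was left out, with -0.75 and an adjusted p of 0.0927 without naive WT 11 as the weakest. With DSS the genotypes differed by 0.27 (-0.20 to 0.74, adjusted p = 0.520).

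Tff3, a trefoil peptide that is secreted with mucin and aids repair of the epithelium, came next. It was 12.52, 13.73, 13.52 and 13.27 in naive WT and 12.82, 12.82, 11.70 and 12.04 in naive Mbd2KO. WT replicate 9 fell within the range of the Mbd2KO samples, and the other 3 lay above all of them. The difference of -0.92 (-1.49 to -0.35) missed the threshold with an adjusted p of 0.0591, and still did in 15 of the 16 cases of a sample left out, at weakest -0.76 with 0.166 without naive WT 10. The exception was -1.16 with 0.0169 without naive WT 9. Median scaling also gave a pass, at -1.09 with 0.0245, as did all 18 arrays taken as samples, at -0.92 with 0.0401. With DSS it was -0.46 (-1.03 to 0.11, adjusted p = 0.343), with group means of 13.13 ± 0.22 in WT and 12.67 ± 0.32 in Mbd2KO (SD, n = 4).

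**Figure D2:**
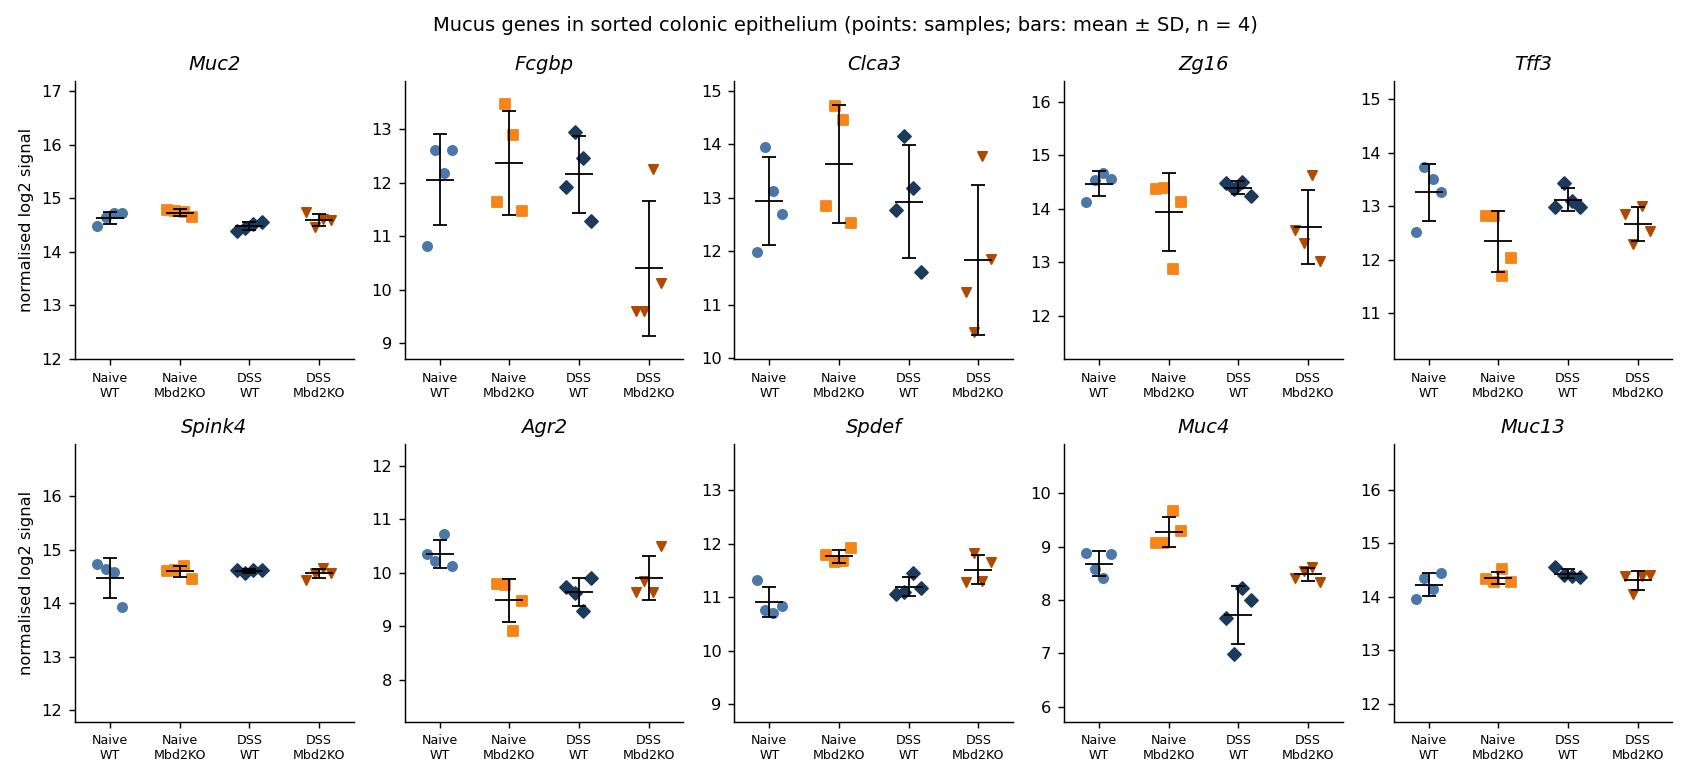
Normalised log2 signal of the brightest probe of each of the 10 genes in the 4 groups (points: 16 samples in order of replicate; bars: mean ± SD, n = 4; every panel spans the same number of log2 units). Muc2 and Muc13 vary least, naive WT 12 lies below the rest for Spink4, Fcgbp and Clca3 spread within every group, and the naive groups do not overlap for Agr2, Spdef and Muc4.

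With DSS, the membrane mucin Muc4 alone passed, narrowly and as higher in Mbd2KO than in WT. The mucus partners Fcgbp and Zg16 had lower means without passing. By the call rule 0 of 14 probes were called against 0.862% of all tested probes. At an adjusted p under 0.05 there was 1 of 14, a share near the 5.63% of all tested probes. At an unadjusted p under 0.05 there were 4 of 14, from 3 genes, against 22.2%. In the same comparison Aqp8, 1 of 7 tested colonocyte markers, was lower at -2.12 (adjusted p = 0.0135), and the medians of the 7 colonocyte and 7 enteroendocrine markers were -0.28 and -0.60, whose part in the members' values was not tested. Of the probes that passed 0.05, 43.6% were higher in Mbd2KO, or 30.1% under median scaling.

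Muc4 is a large transmembrane mucin of the apical surface. Its log2 signal was 7.66, 6.98, 8.23 and 8.00 in DSS WT replicates 1, 2, 3 and 4, and 8.42, 8.54, 8.63 and 8.33 in DSS Mbd2KO replicates 5, 6, 7 and 8. The groups did not overlap, with DSS WT 2 the lowest sample of the series. The difference was 0.76 (0.30 to 1.21, adjusted p = 0.0487), a fold of 1.69, and 0.74 at the other probe (0.25 to 1.23, adjusted p = 0.0713). This pass was marginal: 0.05 was missed when any of 13 of the 16 samples was left out, in the weakest case with 0.51 and an adjusted p of 0.142 without DSS WT 2, and it passed only without DSS WT 3, naive WT 11 or naive Mbd2KO 15. In untreated mice Muc4 was 8.88, 8.58, 8.41 and 8.86 in WT and 9.07, 9.06, 9.66 and 9.30 in Mbd2KO, again without overlap at this probe. That difference was 0.59 (0.14 to 1.04) with an adjusted p of 0.114, or 0.0414 when DSS WT 2 was left out of the shared estimate of spread.

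Fcgbp encodes a large mucus protein that is bound to Muc2. In DSS Mbd2KO it was 9.60, 9.60, 12.26 and 10.13, and in DSS WT it was 11.92, 12.96, 12.46 and 11.29. Replicate 7 of the Mbd2KO group sat within the WT range, and the other 3 lay below it. The difference was -1.76 (-3.0 to -0.52) with an adjusted p of 0.0883. It missed 0.05 with 15 of the 16 samples left out in turn, from -2.38 with an adjusted p of 0.0180 without DSS Mbd2KO 7, the exception, to -1.49 with 0.248 without DSS WT 2. With all 18 arrays as samples, the repeats again counted as independent, it was -1.74 with 0.0339. In untreated mice the difference was 0.31 (-0.93 to 1.56, adjusted p = 0.794).

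Zg16 encodes a lectin of the mucus that binds bacteria, and its probe was near the top of the scale. It was 14.47, 14.36, 14.50 and 14.24 in DSS WT and 13.59, 13.35, 14.63 and 13.03 in DSS Mbd2KO. Replicate 7 of the Mbd2KO group lay above the WT range, and the other 3 lay below it. The difference was -0.74 (-1.42 to -0.06, adjusted p = 0.183), and leaving out each of the 16 samples gave a pass in 1 case, -1.07 with an adjusted p of 0.0497 without replicate 7, and at weakest -0.53 with 0.415 without DSS Mbd2KO 8. With array weights it was -0.93 with 0.0364. In untreated mice Zg16 was 14.12, 14.54, 14.66 and 14.55 in WT and 14.37, 14.39, 12.86 and 14.12 in Mbd2KO. Apart from naive Mbd2KO 15, the lowest sample of the series for this gene, these values lay close together, and the difference was -0.53 (-1.21 to 0.15, adjusted p = 0.338).

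**Figure D3:**
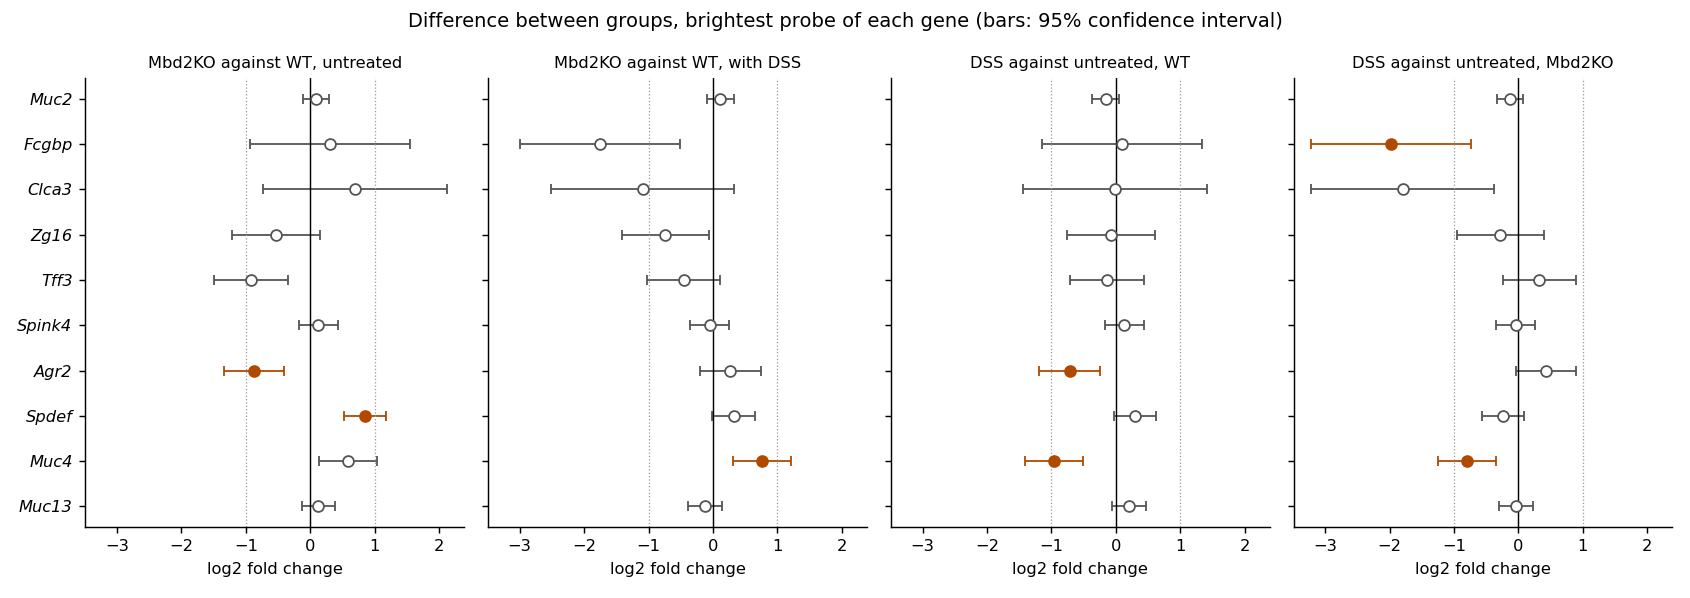
Log2 fold change of the brightest probe of each gene in the 4 comparisons (bars: 95% confidence interval from limma; filled points: adjusted p under 0.05 over all tested probes; dotted lines: a log2 fold change of 1 in either direction). The intervals of Muc2, Spink4 and Muc13 are the narrowest, and no point combines an adjusted p under 0.01 with an absolute value of 1 or more.

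DSS against no treatment gave lower Muc4 in both genotypes, lower Agr2 in WT and lower Fcgbp in Mbd2KO with quantile normalization, while the bright Muc2 probe differed by -0.16 in WT and -0.13 in Mbd2KO without passing. The WT and Mbd2KO comparisons of DSS share no samples, but each shares its samples with both genotype comparisons. By the call rule 0 of 14 member probes were called in WT against 1.74% of all tested probes, and 0 of 14 in Mbd2KO against 1.72%. At an adjusted p under 0.05 there were 3 of 14 in WT against 10.5%, and 2 of 14 in Mbd2KO against 9.42%. These came from 2 genes in each genotype, since both Muc4 probes passed in WT. At an unadjusted p under 0.05 there were 4 of 14 in WT against 26.3%, and 6 of 14 in Mbd2KO against 24.5%, from 3 and 4 genes. The direction of a DSS difference depends on the scaling. With each array scaled to its median, the share of probes passing an adjusted p under 0.05 that were higher with DSS was 93.0% in WT and 93.1% in Mbd2KO, against 54.6% and 52.0% with quantile normalization, and the median over all tested probes moved by 0.25 in either genotype. Spdef for DSS in WT was 0.29 (-0.03 to 0.62, adjusted p = 0.241) with quantile normalization and passed as higher under median scaling, at 0.69 (adjusted p = 0.0270). Tff3 for DSS in Mbd2KO was 0.33 (-0.24 to 0.90, adjusted p = 0.492) and passed as higher under median scaling, at 0.72 (adjusted p = 0.0466).

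Muc4 fell with DSS in WT by 0.96 on the log2 scale (95% confidence interval -1.42 to -0.51, adjusted p = 0.00981), a fold of 1.95, and its other probe had -0.77 (adjusted p = 0.0450), which missed 0.05 when any of 11 of the 16 samples was left out, with 0.120 without DSS WT 2. All 4 DSS WT samples lay below the naive WT samples at the brighter probe. At that probe the difference stayed under 0.05 with any sample left out. In Mbd2KO it fell by 0.80 (-1.25 to -0.34, adjusted p = 0.0274), also without overlap, while the other probe had -0.69 (adjusted p = 0.0736). It missed 0.05 without DSS Mbd2KO 5, 6 or 8 or naive Mbd2KO 15 or 16, with 0.0829 without DSS Mbd2KO 8. Under median scaling Muc4 was at -0.63 (adjusted p = 0.0856) in WT and at -0.43 (adjusted p = 0.251) in Mbd2KO.

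Agr2 fell in WT by 0.72 (-1.18 to -0.25, adjusted p = 0.0490), from the naive values given above to 9.74, 9.62, 9.28 and 9.91. The groups did not overlap. It missed 0.05 when any of 14 of the 16 samples was left out, with 0.139 without naive WT 11, and passed only without DSS Mbd2KO 8 or naive Mbd2KO 15, and under median scaling the difference was -0.31 (adjusted p = 0.357). In Mbd2KO, where Agr2 was 9.63, 9.85, 9.64 and 10.51 with DSS, the difference was 0.43 (-0.04 to 0.89, adjusted p = 0.248), and 0.79 with an adjusted p of 0.0297 under median scaling.

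Fcgbp fell in Mbd2KO by 1.97 (-3.22 to -0.73, adjusted p = 0.0443), a fold of 3.93. The untreated samples were 11.65, 13.48, 12.89 and 11.48, and DSS sample 7 lay within them. Without that sample the difference was -2.59 with an adjusted p of 0.00527, which met the call rule. The difference missed 0.05 without DSS WT 1 or 3, DSS Mbd2KO 5, 6 or 8, naive WT 10 or 11, or naive Mbd2KO 14 or 15, with 0.132 without naive Mbd2KO 14. In WT, where Fcgbp was 10.81, 12.62, 12.19 and 12.61 untreated, the difference was 0.10 (-1.14 to 1.34, adjusted p = 0.936).

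Clca3 encodes a secreted protease that processes the mucus gel. In DSS Mbd2KO it was 11.23, 10.48, 13.78 and 11.85 and in naive Mbd2KO it was 12.85, 14.71, 14.45 and 12.52. DSS Mbd2KO 7 again stood apart from the other 3 of its group, within the untreated range. The difference was -1.80 (-3.23 to -0.37, adjusted p = 0.105), which passed in 1 of the 16 cases of a sample left out, at -2.45 with 0.0221 without replicate 7, and was at weakest -1.35 with 0.273 without DSS Mbd2KO 6. With array weights it was -1.94 with 0.0481. In WT it was 12.76, 14.15, 13.18 and 11.61 with DSS against 11.98, 13.94, 13.12 and 12.70 without, a difference of -0.01 (-1.43 to 1.42, adjusted p = 0.994). With DSS the genotypes differed by -1.09 (-2.52 to 0.33, adjusted p = 0.367), and without it by 0.70 (-0.73 to 2.12, adjusted p = 0.572).

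For the gel-forming mucin Muc2 the bright probe gave a narrow answer. Its group means were 14.64 ± 0.11 in naive WT, 14.73 ± 0.06 in naive Mbd2KO, 14.48 ± 0.07 in DSS WT and 14.60 ± 0.11 in DSS Mbd2KO (SD, n = 4). The difference between genotypes with DSS was 0.12 (-0.09 to 0.32, adjusted p = 0.530), and DSS gave -0.16 (-0.36 to 0.05, adjusted p = 0.321) in WT and -0.13 (-0.34 to 0.07, adjusted p = 0.424) in Mbd2KO. Untreated genotypes differed by 0.09 (-0.11 to 0.30, adjusted p = 0.607). These intervals hold on a probe near the top of the scale. The dim Muc2 probe, far from it, had -0.17 (-0.46 to 0.13) between genotypes with DSS and -0.32 (-0.61 to -0.03, adjusted p = 0.157) for DSS in Mbd2KO. Its other values were -0.03 (-0.32 to 0.26) for DSS in WT and 0.13 (-0.16 to 0.42) between untreated genotypes.

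Spink4, a small protease inhibitor secreted by goblet cells, was 14.61 ± 0.03 in DSS WT and 14.56 ± 0.09 in DSS Mbd2KO (SD, n = 4), and its 4 comparisons between groups lay between -0.05 and 0.13, with adjusted p of 0.60 or more. Naive WT 12 was its lowest sample, at 13.92 against 14.73, 14.65 and 14.59 in the rest of the group. Muc13, a transmembrane mucin of the gut surface, had comparisons between -0.12 and 0.21 at the bright probe, with adjusted p of 0.298 or more. Its second, dimmer probe gave -0.46 (-0.81 to -0.11, adjusted p = 0.0842) for DSS in WT where the bright one gave 0.21 (-0.05 to 0.47), so the probes of this gene disagreed in sign. Their correlation over the 16 samples was 0.20, against 0.97 for the Muc4 pair and 0.999 for the Clca3 pair.

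No member's genotype effect differed with and without DSS by the interaction test. At an adjusted p under 0.05 there were 0 of 14 member probes and 0% of all tested probes, and at the call rule also 0 and 0%. At an unadjusted p under 0.05 there were 3 of 14 against 10.7%. They were Agr2 with an interaction of 1.14 (0.48 to 1.80, unadjusted p = 0.00206, adjusted p = 0.232), Fcgbp with -2.07 (-3.83 to -0.31, unadjusted p = 0.0236, adjusted p = 0.381) and Spdef with -0.54 (-1.0 to -0.08, unadjusted p = 0.0250, adjusted p = 0.385). For Clca3 it was -1.79 (-3.81 to 0.23, adjusted p = 0.530). Taken by their brightest probes, 7 of the 10 genes were higher in Mbd2KO than in WT untreated and 4 with DSS, with medians of 0.13 and -0.08, and 4 were higher with DSS in WT and 2 in Mbd2KO, with medians of -0.04 and -0.19, beside medians over all tested probes of -0.0011, -0.0034, -0.010 and -0.016. Under median scaling the counts were 6 and 4 for the genotypes and 7 and 5 for DSS.

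Members differed most in their spread among samples of the same group. The SD within groups was 1.12 and 1.15 at the Clca3 probes and 0.973 at the Fcgbp probe, above the 99th percentile of 0.820 over all tested probes, whose median was 0.223. In other words, Clca3 ranked 93 and 81 and Fcgbp 143 of 21938 probes by spread. Zg16 followed with 0.519 and Tff3 with 0.431, and the bright Muc2 probe, at 0.0928, ranked 21680. Repeat arrays differed for Clca3 by 0.002 between 4 and 4R and by 0.041 between 5 and 5R, and for Fcgbp by 0.262 and 0.0248. Over the 10 genes these differences reached 0.382, for Agr2 between 5 and 5R. On the linear scale of the deposited signals Clca3 ranged within a group from 3.59-fold in naive WT to 6.94-fold in DSS Mbd2KO.

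**Figure D4:**
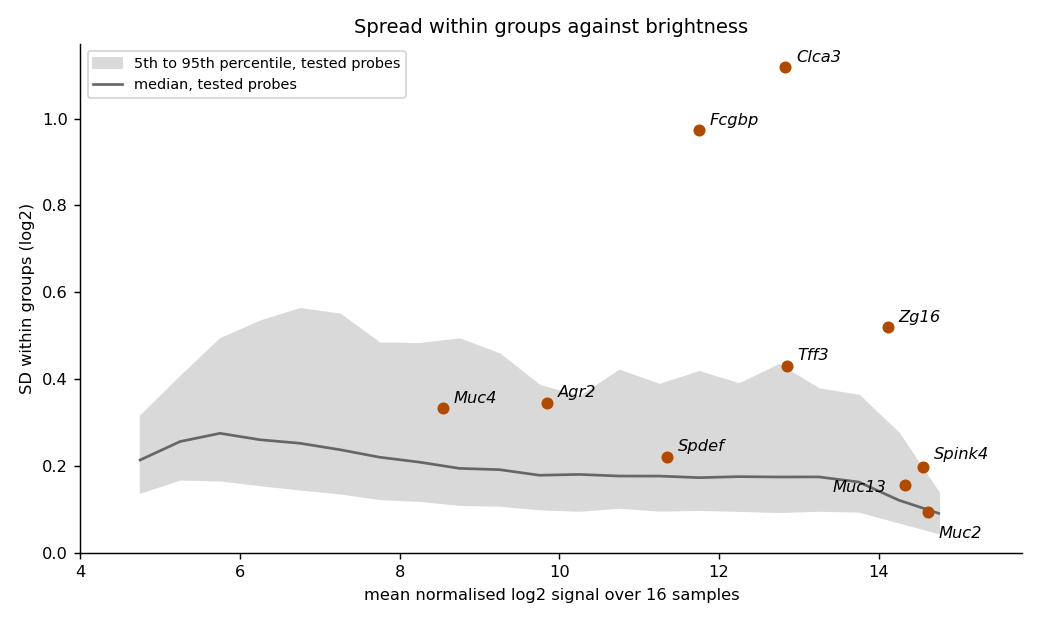
SD within groups of the brightest probe of each gene against its mean log2 signal (points), beside the tested probes in steps of 0.5 log2 (band: 5th to 95th percentile; line: median). Clca3 and Fcgbp lie far above the band, Zg16 and Spink4 also lie above it, Tff3 is at its upper edge, and Muc2 is close to the median line.

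Clca3 and Fcgbp varied together. Taken as deviations from the group means over 16 samples, Pearson's r was 0.94 and Spearman's rho 0.92, each with a permutation p of 5e-05 (100000 permutations within groups, two-sided), or 0.00225 after Benjamini-Hochberg adjustment over the 45 pairs of members. Without the 2 samples farthest from the median of Clca3, DSS Mbd2KO 7 and DSS WT 2, r was 0.90. Within their groups both genes were highest in naive WT 10, naive Mbd2KO 14, DSS WT 2 and DSS Mbd2KO 7, and lowest in naive WT 9, naive Mbd2KO 16, DSS WT 4 and DSS Mbd2KO 6. The only other pair to pass was Tff3 with Zg16, with r of 0.71 (permutation p = 0.00182, adjusted 0.0410), rho of 0.68 (permutation p = 0.0056, adjusted 0.126), and r of 0.57 without naive WT 9 and naive Mbd2KO 15. The median r over the 45 pairs was 0.00. No label ties the samples to a batch, so no within-batch value could be had.

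**Figure D5:**
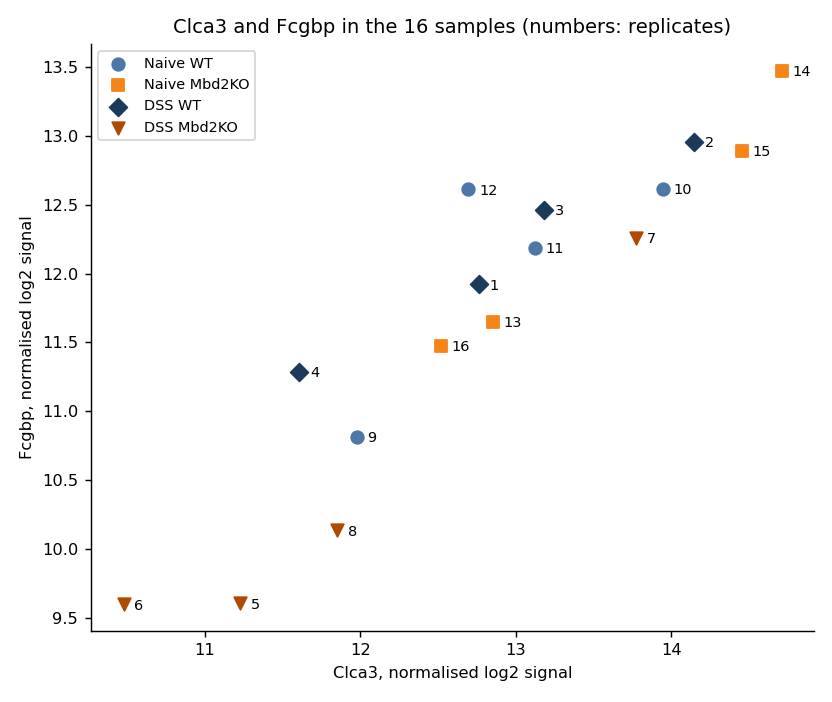
Normalised log2 signal of Fcgbp against Clca3 in the 16 samples (symbols: groups; numbers: replicates). The samples of every group stretch along a shared diagonal. DSS Mbd2KO 7 lies among samples of the other groups, both untreated and DSS WT, while DSS Mbd2KO 5, 6 and 8 have the lowest Fcgbp.

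Beyond the members, the genes whose signal followed them most closely over the 16 samples were sought among 15636 genes, as a description, with the groups' own differences included. For Fcgbp they were LOC381860 (r of 0.98), Kif13a (0.93) and Gsdmc3 (0.92), and for Clca3 Gsdmc3 (0.93), LOC639715 (0.92) and Fblim1 (0.91). Gsdmc3, a gasdermin, was thus on both lists. Muc4 was followed by Lnx2 (0.96), 2500002L14Rik (0.94) and Rgmb (0.94). For Tff3 the closest was Spink3 (0.87), for Zg16 Tmed8 (0.86), for Agr2 EG637748 (0.92), for Spdef LOC233529 (0.89), for Muc2 Rbm5 (0.90), for Spink4 LOC100041835 (0.86) and for Muc13 Fgd6 (0.76).

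Other goblet cell genes were read in 3 further lists, by the brightest tested probe of a gene. The regulators of the secretory lineage held 17 names, of which 16 were on the array and 15 were tested. In Mbd2KO given DSS, 3 of the 15 passed an adjusted p under 0.05 against untreated Mbd2KO, beside 9.42% of all tested probes, all lower: Foxa2, a forkhead factor (-1.08, adjusted p = 0.00227), Creb3l1, an endoplasmic reticulum stress transducer (-0.79, adjusted p = 0.0333), and Ern2, the stress sensor of mucin-secreting cells (-0.68, adjusted p = 0.00432). A second Creb3l1 probe had -0.23 (adjusted p = 0.353) there and -0.53 (adjusted p = 0.0316) for DSS in WT, and the first missed 0.05 without DSS Mbd2KO 5, 6 or 8 or naive Mbd2KO 13, 14 or 16. The median of the list was -0.26 beside -0.02 over all tested probes. By its brightest probe no regulator passed in the other comparisons.

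Of 10 other mucins and trefoil peptides, 5 were tested. With DSS 2 of the 5 passed between genotypes, Muc1 and Muc16, beside 5.63% of all tested probes. Untreated, Muc1 passed, beside 5.19% of all tested probes. Muc20 also came under 0.05 untreated, but it is not counted, for the reason given below. Muc1, a transmembrane mucin, was higher in Mbd2KO in both settings, by 1.95 untreated (adjusted p = 0.000470) and by 1.14 with DSS (adjusted p = 0.0154). It was 6.89 ± 0.39 in naive WT, 8.84 ± 0.29 in naive Mbd2KO, 7.09 ± 0.25 in DSS WT and 8.23 ± 0.59 in DSS Mbd2KO (SD, n = 4), and 3 more Muc1 probes gave 1.87 to 2.09 untreated and 1.28 to 1.67 with DSS. Muc20 had a dim probe, detected on 4 of 4 arrays of naive Mbd2KO, 1 of 5 of DSS Mbd2KO and 0 of the WT arrays, so that it passed the filter through naive Mbd2KO and had to be high there. Its mean log2 signal was 5.34 in naive Mbd2KO, 4.81 in DSS Mbd2KO, 4.67 in naive WT and 4.56 in DSS WT, given as a description only. Muc16 was lower in Mbd2KO with DSS by 2.09 (adjusted p = 0.0132, or 0.050 without DSS WT 2), and it was detected on 5 of 5 arrays of DSS WT but 2 of 5 of DSS Mbd2KO, so that the size of this difference rests partly on signals not above background. With DSS in Mbd2KO Muc3, a membrane mucin, passed as lower by 1.21 (adjusted p = 0.00467), beside 9.42% of all tested probes that passed. Muc20 also came under 0.05 as lower, which is not counted or read as a result because it entered the test through naive Mbd2KO. The second Muc3 probe had -1.30 (adjusted p = 0.0550) there and -1.40 (adjusted p = 0.0393) in WT, where the first had -0.62 (adjusted p = 0.103).

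The list of other secreted or granule proteins held 39 names, of which 34 were on the array and 29 were tested (Clca1 there is the array's name for Clca3a1). In Mbd2KO given DSS 8 of the 29 passed, beside 9.42% of all tested probes, all lower, with a median of -0.34 over the list beside -0.02 over all tested probes. Best2, a chloride and bicarbonate channel of colonic goblet cells, fell by 2.80 (adjusted p = 0.00912) from 8.73 ± 0.84 to 5.94 ± 1.51, and Reg4, a secreted lectin, by 1.88 (adjusted p = 0.00736) from 9.37 ± 0.53 to 7.49 ± 0.83 (SD, n = 4). Best2 was detected on 4 of 5 arrays of DSS Mbd2KO, so the size of its fall rests partly on a signal not above background. B3gnt6, an enzyme of mucin glycans, fell by 1.15 (adjusted p = 0.0113) and Ramp1, a receptor subunit, by 1.01 (adjusted p = 0.000669). The others were the chemokine Ccl6 (-1.01, adjusted p = 0.00384), Fcna (-0.83, adjusted p = 0.00925), and the proteases Capn8 (-0.54, adjusted p = 0.00607) and Capn9 (-0.95, adjusted p = 0.0442). Capn9 missed 0.05 when any of 9 samples was left out, with 0.134 without naive Mbd2KO 14, and 2 further Capn8 probes had -0.21 (adjusted p = 0.480) and -0.37 (adjusted p = 0.184). In WT given DSS 5 of the 29 passed, beside 10.5% of all tested probes: Retnlb, a goblet cell protein of the innate defence, Fut2 and Gcnt3 were higher by 2.6 (adjusted p = 0.00467), 0.73 (0.0135) and 0.50 (0.0342), and Ramp1 and Ccl6 lower by 1.03 (0.000587) and 0.89 (0.00736). Gcnt3 missed 0.05 when any of 6 samples was left out, with 0.0932 without naive WT 10. In Mbd2KO the call rule took 6 genes over the 3 lists, of 15, 5 and 29 tested and beside 1.72% of all tested probes: Foxa2, Muc3, Best2, Reg4, Ramp1 and Ccl6. Under median scaling it took 2. S100a8, a neutrophil gene of the leukocyte list, was higher with DSS by 2.82 in WT and by 3.82 in Mbd2KO, and markers of other epithelial cells moved too. Of 7 tested colonocyte markers 2 were lower with DSS in Mbd2KO, Aqp8 at -2.83 (adjusted p = 0.00151) and Car4 at -1.59 (adjusted p = 0.0128), and of 7 enteroendocrine markers 1, Insl5, at -2.34 (adjusted p = 0.0232). In WT none of these passed. The median summed signal in naive and DSS-treated Mbd2KO was 59970 and 61646 for colonocyte markers and 14167 and 9949 for enteroendocrine markers, and the part of these cells in the differences was not tested. By the interaction test 0 genes of these lists passed an adjusted p under 0.05, so a difference between the responses of WT and Mbd2KO was not shown.

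Between genotypes, 2 of the 29 passed in each setting, a share close to the 5.19% of all tested probes untreated and 5.63% with DSS. Retnlb was higher in untreated Mbd2KO by 2.19 (adjusted p = 0.0227), at 11.17 ± 0.48 in naive WT and 13.36 ± 1.60 in naive Mbd2KO (SD, n = 4), a wide spread within the latter. This was lost without naive WT 10 or 12 or naive Mbd2KO 14 or 15, with 0.0676 without naive Mbd2KO 15. Agr3, a relative of Agr2, was lower there by 0.71 (adjusted p = 0.0397), lost when any of 10 samples was left out and weakest with 0.108 without naive WT 11. With DSS, C1galt1, the enzyme that starts core mucin glycans, was higher by 0.62 (adjusted p = 0.0374) and Capn8 lower by 0.41 (adjusted p = 0.0391; its further probes had -0.20 and -0.35, with adjusted p of 0.533 and 0.240), and each missed 0.05 when any of 6 DSS samples was left out, with 0.105 for C1galt1 without DSS Mbd2KO 8 and 0.109 for Capn8 without DSS Mbd2KO 6.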

How the data were processed

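RNA from FACS-sorted colon epithelium was labelled and hybridised to 18 Illumina MouseWG-6 arrays. The deposited table held, per the file headers, 1 summarised intensity per probe and array without normalization, with a detection p-value, the bead number and the bead standard error. The submitters' processing notes name lumi and limma; the columns used here precede that step. The genome build of the probe coordinates is not given in the sources used here.

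Intensities were background-corrected against 936 negative control probes and quantile-normalized with neqc (offset 16, limma 3.58.1, R 4.3.3), which gives log2 signals. Arrays 4R and 5R, taken as repeats of samples 4 and 5, were averaged with them, and the meaning of R was not stated. Probes with a detection p under 0.05 on at least 4 of 18 arrays were tested, 21938 of 45281. A single limma fit over 16 samples with a mean per group (12 residual degrees of freedom) gave both genotype comparisons, both DSS comparisons and their interaction, with Benjamini-Hochberg adjustment over all tested probes. A gene was read by its brightest probe. Older names were resolved through the RefSeq table (GRCm38.p6) and its synonyms.

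Members and lists were chosen with earlier results of these data known. Every member is named; of the other lists, genes passing an adjusted p under 0.05 were named. Depth does not apply to arrays, and the number of arrays limits the precision. Alternatives changed the scaling, background correction, offset, filter, repeat arrays, samples in the fit, array weights and each replicate left out, and reading members by symbol only was chosen after seeing the data. The code was tested on simulated data.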

Additional observations from a re-analysis of the deposited data

Results flagged for a closer look

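Among 56 sets of 4 samples (14 probes in 4 groups), 2 held a sample that stood apart from the rest by Dixon's test at the 95% level, where chance marks about 1 in 20. Both were of the bright Muc13 probe, near the top of the scale. In DSS WT, replicate 1 was at 14.56 and the nearest of the others at 14.40, a gap of 0.832 of the group's range. In DSS Mbd2KO, replicate 6 was at 14.04 and the nearest at 14.39, a gap of 0.943 of the range.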

How the results depend on the processing

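Over all alternatives, 1131 values of single genes kept their direction and side of the threshold, 64 lost the threshold, 13 gained it and 32 changed sign. Of the counts of probes or genes, 303 stayed within 1.5 times the reported count, 66 fell further and 13 rose further. The cause was not tested. At an adjusted p under 0.05, the 1 member probe of the genotype comparison with DSS became 0 under median scaling, without background correction, without the filter, with 4R and 5R left out and with only the groups compared, and 3 with all 18 arrays as samples. The fit of all 18 arrays counts the repeats 4R and 5R as independent samples, so its p-values overstate the number of samples. The 2 without DSS became 1 without the filter, with only the groups compared and with array weights. The 3 for DSS in WT became 1 under median scaling, without background correction and without the filter. The 2 for DSS in Mbd2KO became 1 without background correction and with members read by symbol only, and 0 without the filter. With all samples kept, the largest counts of these last 3 were 3, 4 and 3, each with all 18 arrays, the last also with array weights and under median scaling, where the passing genes changed: Muc4 missed (-0.43) and Agr2 (0.79) and Tff3 (0.72) passed as higher, beside Fcgbp (-1.57). Leaving out each sample gave 0 to 2, 1 to 4, 1 to 3 and 0 to 4 in that order, and by the call rule 0 to 1 for DSS in WT (1 without DSS WT 3) and in Mbd2KO (1 without DSS Mbd2KO 7), and 0 elsewhere. Of other goblet cell genes, the 0 called between genotypes with DSS became 1 under median scaling and 2 with all 18 arrays or array weights. The 2 for DSS in WT became 1 without background correction or the filter. The 6 for DSS in Mbd2KO became 2 under median scaling, 1 without background correction, 2 with offset 50, 3 without the filter and 2 with only the groups compared. Leaving out each sample gave 0 to 1, 1 to 2 (untreated genotypes), 0 to 2 and 1 to 8.

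Under median scaling the sign changed for Muc13 between untreated genotypes (-0.080), for Tff3 (0.18), Clca3 (0.30) and Zg16 (0.019) with DSS in WT, for Zg16 (0.0045), Spdef (0.15) and Muc13 (0.21) with DSS in Mbd2KO, and for the Muc2 interaction (-0.19), which was -0.023 with array weights. Fcgbp for DSS in WT was -0.074 with all 18 arrays and -0.048 with array weights. Leaving out each sample changed the sign of Fcgbp (-0.10 to 0.61) and Spink4 (-0.058 to 0.21) between untreated genotypes, of Tff3 (-0.38 to 0.023), Clca3 (-0.42 to 0.43), Fcgbp (-0.32 to 0.39) and Spink4 (-0.052 to 0.22) with DSS in WT, of Muc13 (-0.075 to 0.047) with DSS in Mbd2KO, and of the interactions of Muc2 (-0.022 to 0.076), Spink4 (-0.26 to 0.011) and Muc4 (-0.079 to 0.34). None of these passed the threshold in the reported fit. No paired analysis was possible because the groups share no replicate numbers. A slide block was not run, since the columns name no slide.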
